A study of Mus musculus with 9 samples.

Results

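Nono, Tbp and Rpl13a are 3 of the 15 genes that the array design prints as reference genes, each with 1 probe repeated in 20 spots scattered over the array. They were taken by the RefSeq transcript that names the probe, and together they hold 60 of the 61194 non-control spots, against 59709 transcript probes in all. The RNA came from primary cortical neurons of Swiss Albino mouse embryos at gestation day 15, kept in Neurobasal medium with B27. In the maturation series the cultures were taken on Days 2, 4, 6 and 8. In the second series, cultures of Day 6 were deprived of oxygen and glucose (OGD, a model of ischaemia in a dish) for 2, 4, 6 or 8 hr and then given 24 hr of reperfusion without B27, and the 0 hr OGD culture went through the same steps, reperfusion included, without the deprivation. The cultures of the maturation series had no reperfusion step. Each condition has 1 array, on which RNA from 4 experiments was pooled for the maturation days and for 0, 2 and 4 hr OGD, and the sources used here do not say so for 6 and 8 hr. No condition therefore has a replicate, no test between conditions was possible, and each value describes these 9 arrays. The 20 spots of a gene were hybridized with the same labelled RNA, so their spread is technical. An offset of a whole array moves all of them together. Agreement of spot positions in sign, or spot ranges that do not overlap, therefore says nothing of the spread between cultures.

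The genes belong to successive steps of gene expression. Nono encodes a nuclear protein that binds RNA and DNA, pairs with Sfpq, takes part in transcription and splicing, and is a core protein of paraspeckles, the nuclear bodies built on the lncRNA Neat1. Tbp encodes the TATA-binding protein, which is part of the initiation complexes of all the nuclear RNA polymerases, TFIID among them. Rpl13a encodes a protein of the large ribosomal subunit, and the protein is also known to leave the ribosome and repress the translation of some inflammatory mRNAs. All are used in many tissues as reference genes for qPCR, on the premise that their mRNA varies little.

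Signal was sufficient for all of them on most arrays. Feature Extraction, the software that analysed the array images, called all 180 spot readings of each gene (20 spots on 9 arrays) well above background, and none was saturated. It marked 6 readings of Nono, 14 of Tbp and 10 of Rpl13a as outliers, and these were left out. Before normalization the geometric mean signal ran from 1576 to 5248 for Nono, from 58.8 to 128.2 for Tbp and from 105 to 341 for Rpl13a. The array of Day 4 stood apart, since 54.4% of the spots of its 20 negative probes were called well above background, against 0.833% to 9.58% on the other arrays. The 95th percentile of the negative spots was 95.8 on Day 4, and the mean Tbp signal there was 87.4. Only 2 of the 20 Tbp spots on Day 4 were above that percentile, whereas all 20 were on each of the other 8 arrays, where the Tbp signal was 3.64 to 5.37 times the percentile. On Day 4 Nono was 17.6 times and Rpl13a 2.31 times the percentile, with all 20 spots above it. The Day 4 value of Tbp is therefore a reading at the level of the negative probes. Day 2 and Day 4 were recorded in 1 scan and the other 7 arrays in another, so an SLR of Day 6 or Day 8 against Day 2 compares scans as well as days, which cannot be told apart.

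Nono was highest on the arrays of Day 2 and 0 hr OGD and lowest on Day 4. Its quantile-normalized log2 level was 11.50 ± 0.05 (SD over spots) on Day 2 and 10.62 ± 0.05 on Day 4. It was 10.80 ± 0.07 on Day 6 and reached 11.11 ± 0.06 by Day 8. In the OGD series the 0 hr culture had 11.68 ± 0.07. After 2, 4, 6 and 8 hr of OGD the level was, in that order, 11.03 ± 0.08, 10.91 ± 0.07, 10.79 ± 0.06 and 11.34 ± 0.05. The 0 hr array thus stood above all 4 deprived arrays, and the 8 hr array was the nearest to it. The error that Feature Extraction models for a reading, which the spot SD does not contain, was 0.14 on the log2 scale for Nono on each array, or 0.20 for a difference between arrays. It was the same 0.14 for Actb, Gapdh and Ppia on each array. It is the mean over spots of the error of a single reading, not reduced for the number of spots. It is thus a yardstick from the software and not a spread measured between arrays. Against that error only 1 of the 8 steps between neighbours in the order of levels stood out, the 0.23 between 8 hr OGD and Day 8.

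After quantile normalization Tbp lay between 6.12 and 6.72 on every array but Day 4. Its level started at 6.36 ± 0.20 on Day 2 and was 5.33 ± 0.15 on Day 4. Days 6 and 8 gave 6.26 ± 0.10 and 6.12 ± 0.15. The 0 hr OGD culture had 6.42 ± 0.10, and 2, 4, 6 and 8 hr of OGD gave, in that order, 6.72 ± 0.12, 6.51 ± 0.15, 6.26 ± 0.17 and 6.56 ± 0.11. The array of 2 hr OGD was the highest and Day 4 the lowest, and the 0.80 between Day 8 and Day 4 was the only step between neighbours beyond the modelled error of a difference, which was 0.21 to 0.24. Among the 3 genes Tbp had the dimmest spots and the widest spread between them, with a median coefficient of variation over spots of 7.92% on the signal scale, against 3.89% for Nono and 5.26% for Rpl13a.

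Rpl13a went up and down along both series. From 7.69 ± 0.10 on Day 2 it came to 7.12 ± 0.14 on Day 4. It then stood at 8.15 ± 0.09 on Day 6 and 7.75 ± 0.06 on Day 8. The 0 hr OGD culture had 7.79 ± 0.04, against 7.26 ± 0.10 after 2 hr and 7.56 ± 0.07 after 4 hr of OGD. The longest deprivations gave 8.00 ± 0.05 (6 hr) and 7.30 ± 0.08 (8 hr). Day 6 and 6 hr OGD held the highest levels, and Day 4, 2 hr OGD and 8 hr OGD the lowest. Of the 8 steps between neighbours in that order, 2 exceeded the modelled error, the 0.21 from 6 hr OGD down to 0 hr OGD and the 0.26 from 4 hr OGD down to 8 hr OGD.

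**Figure D1:**
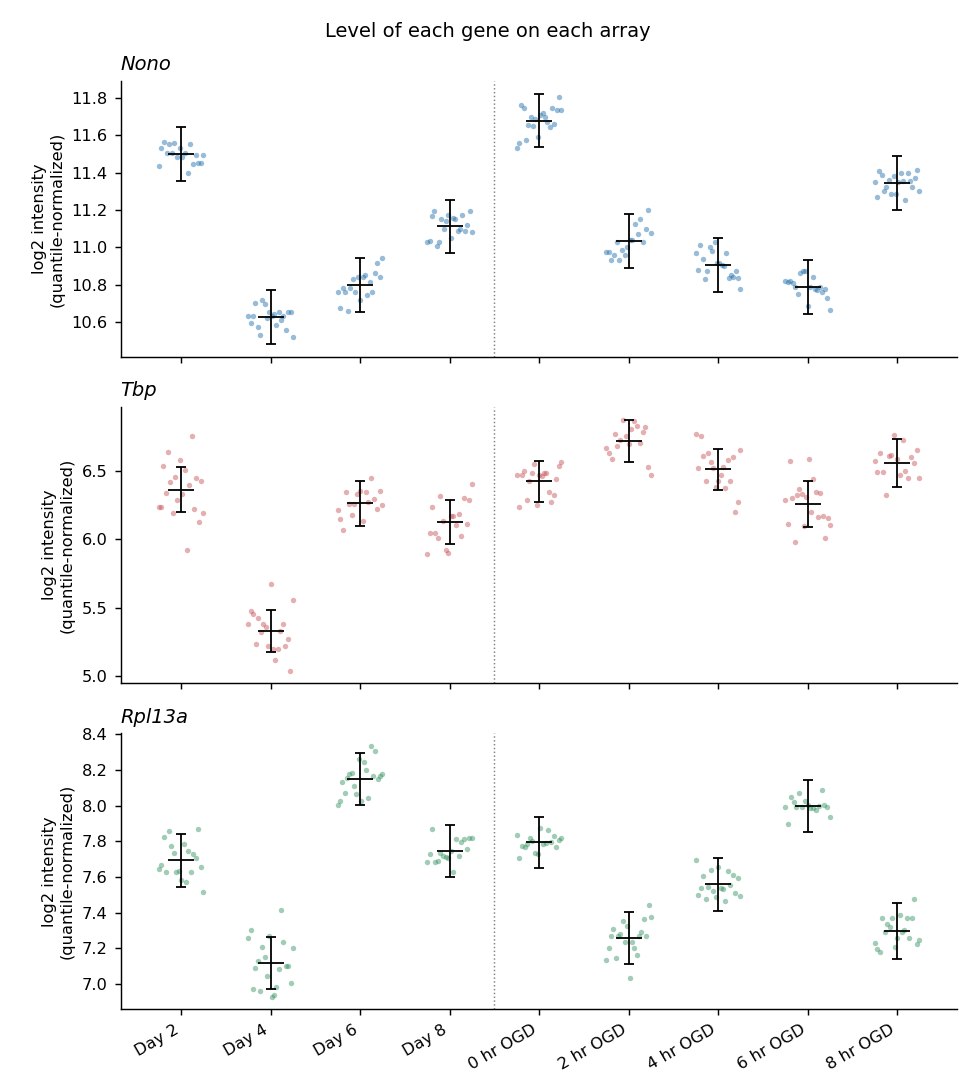
Quantile-normalized log2 intensity of Nono, Tbp and Rpl13a on the 9 arrays. Points are the spots of a gene that were not marked as outliers, horizontal bars their mean, vertical bars the modelled error of a reading, and the dotted line parts the maturation arrays from the OGD arrays. Nono lay highest at 0 hr OGD (11.68), Tbp stood apart on Day 4 (5.33), and Rpl13a was highest on Day 6 (8.15). Each vertical axis has its own range, and levels of different probes cannot be compared.

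The comparison with Day 2 asks how these genes changed while the neurons matured. The study's signal log ratio (SLR) is the log2 difference from Day 2, and its threshold for a change is 1 in either direction. Of the 9 SLRs of the 3 genes, 1 passed it, that of Tbp on Day 4. As background, the share of transcript probes well above background on both arrays that passed the threshold in either direction was 34.3% for Day 4, 9.80% for Day 6 and 10.5% for Day 8. The Day 4 share is the largest of these, and the median SLR of those probes was -0.37 on Day 4, against 0.08 on Day 6 and 0.01 on Day 8. Relative to that Day 4 median, Nono stood at -0.51, Tbp at -0.67 and Rpl13a at -0.21. With scaling to the 75th percentile of all spots, the 1 SLR past the threshold was that of Nono on Day 4 (-1.55), with Tbp at -0.86. Of all probes 12.0% to 27.7% passed it over the later days in that setting.

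Nono was lower than on Day 2 on each later day. Its SLR was -0.87, -0.70 and -0.39 on Days 4, 6 and 8, or 1.83-fold, 1.62-fold and 1.31-fold lower, with an SD of the spot-by-spot differences of 0.07, 0.10 and 0.08. All 18 spot positions that could be compared were lower on each of these days, and the spot ranges did not overlap. The direction on Day 4 held in all 11 alternative settings and that on Day 6 in all 10, although scaling to the 75th percentile brought Day 6 to -0.09 and Day 4 to -1.55. On Day 8 the SLR was 0.05 with that scaling and 0.02 with no normalization between arrays, so its sign depended on the setting. Against the transcript probes, 27.0% had a lower SLR than Nono on Day 4 and 8.63% on Day 6.

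Tbp had an SLR of -1.03 on Day 4, or 2.05-fold lower, with a spot-difference SD of 0.19 and a modelled error of 0.23, and all 19 spot positions were lower. That call rests on the reading at the level of the negative probes, and 20.9% of transcript probes had a lower SLR on that array. It turned into 0.27 with no normalization between arrays and 0.24 when arrays were centred on Gapdh, and was -0.43 after normexp correction and -0.85 after quantile normalization within the scan. The Day 4 value was -0.28 with the 75th percentile of spots above background and -0.09 on the 10 other reference genes. On Day 6 the SLR of Tbp was -0.10 and on Day 8 -0.24, with 12 of 17 and 15 of 18 spot positions lower and overlapping spot ranges. The first lies within the modelled error of 0.23, and the second just outside its own error of 0.23. The Day 6 value was -0.50 when scaled to the 75th percentile of spots above background, -0.56 on the 10 other reference genes and -1.17 on Gapdh, each beyond that error. The Day 8 value was inside its error with normexp (-0.11), the 75th percentile (-0.15), no normalization (-0.18) and outliers kept (-0.18), and -0.53, -0.59 and -0.94 in the 3 settings just named for Day 6.

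Rpl13a had an SLR of -0.58 on Day 4, 0.46 on Day 6 and 0.05 on Day 8. It was thus lower on Day 4 in all 19 spot positions and higher on Day 6 in all 19, while on Day 8 it was higher in 11 of 17, within the modelled error of 0.21. The Day 4 sign flipped in 3 of 11 settings, being 0.39 with no normalization, 0.03 on the 10 other reference genes and 0.35 on Gapdh. The Day 6 sign flipped in 1 of 10, to -0.35 on Gapdh. Between Day 6 and Day 8, which share a scan, Rpl13a was lower by 0.41 on Day 8 and Nono higher by 0.31, and neither sign changed in any of 11 settings. The sizes did change. Rpl13a was inside its modelled error of 0.206 on Gapdh (-0.093) and with no normalization (-0.204). Nono was inside its error of 0.204 with scaling to the 75th percentile (0.133). Tbp differed by -0.14 between these days, within its modelled error of 0.23, and 3.10% of transcript probes passed the threshold there.

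**Figure D2:**
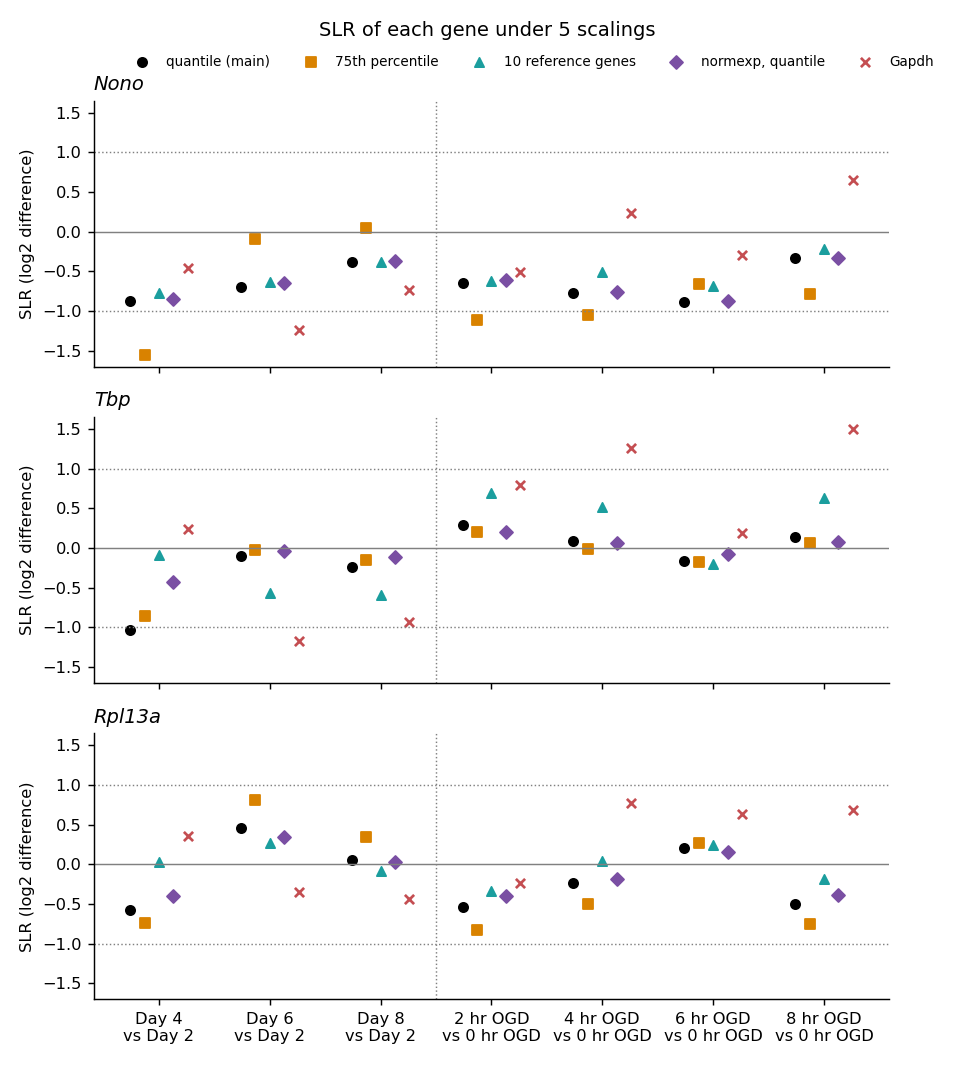
SLR of each gene for the 7 comparisons with Day 2 or 0 hr OGD under 5 scalings of the same spots, marked by symbol. Dotted horizontal lines mark the SLR threshold of 1 and -1. Nono at 2 hr and 6 hr OGD lay below 0 under every scaling shown, whereas under centring on Gapdh all 3 genes lay above 0 at 4 hr and 8 hr OGD.

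The comparison with 0 hr OGD asks how the genes stood after deprivation of increasing length. None of the 12 SLRs passed the threshold, whereas 2 did after scaling to the 75th percentile (Nono at 2 hr, -1.11, and 4 hr, -1.04), 5 with no normalization and 2 on Gapdh. In these settings the share of all probes past it over the 4 lengths ran from 10.3% to 31.1%, from 17.9% to 47.5% and from 20.1% to 64.1%. After quantile normalization the share of transcript probes past it in either direction was 20.5% after 2 hr, 15.4% after 4 hr, 7.76% after 6 hr and 27.4% after 8 hr. In such bulk RNA, fewer cells of a type and less RNA per cell cannot be told apart, and a level on an array is a share of the RNA that was hybridized.

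Nono was lower at each length of OGD. After 2, 4 and 6 hr its SLR was -0.65, -0.77 and -0.89, or 1.57-fold, 1.71-fold and 1.85-fold lower, and after 8 hr it was -0.34, or 1.26-fold lower. The spot-difference SD was 0.06 to 0.10, every comparable spot position was lower (18, 20, 19 and 20 of them), and no spot range overlapped that of 0 hr. The sign held in all 11 settings at 2 hr and 6 hr, and flipped at 4 hr and 8 hr when arrays were centred on Gapdh, to 0.23 and 0.65. At 6 hr, 4.78% of the transcript probes had a lower SLR than Nono, and at 8 hr 33.6%. The pattern was not particular to Nono. Among the OGD arrays, Actb, Gapdh, Hprt, Ppia, Tfrc and Tuba1b were also highest at 0 hr after quantile normalization. B2m, G6pd2 and Gk were lowest there, and Hsp90ab1 was neither.

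After quantile normalization Tbp differed from 0 hr OGD beyond the modelled error only at 2 hr. Its SLRs after 2, 4, 6 and 8 hr were 0.29, 0.09, -0.16 and 0.13, with modelled errors of 0.21, 0.21, 0.23 and 0.23. At 2 hr, 16 of 17 spot positions were higher, though the spot ranges overlapped, and the sign flipped in 1 of 11 settings, to -0.42 with no normalization between arrays. The 2 hr value also fell inside its error of 0.213 with the 75th percentile of all spots (0.200) and with normexp (0.207). At 4, 6 and 8 hr the sign also flipped in 1 of 11 settings each. Centred on the 10 other reference genes the SLRs of 2, 4 and 8 hr were 0.69, 0.52 and 0.63, and centred on Gapdh it was 1.26 at 4 hr and 1.498 at 8 hr. With no normalization it was -0.97 at 6 hr and -0.89 at 8 hr, so the size of these values depended on the scaling.

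Rpl13a was lower at 2 hr (-0.54), 4 hr (-0.24) and 8 hr (-0.50) and higher at 6 hr (0.21). The spot-difference SD was 0.07 to 0.09, each comparable spot position agreed in sign at each time, and no spot range overlapped that of 0 hr. The modelled error was 0.21 at all 4 times, so the 4 hr value and above all the 6 hr value lay at its edge. The sign at 2 hr held in all 11 settings. At 8 hr it flipped on Gapdh (0.69), at 4 hr on Gapdh (0.78) and on the other reference genes (0.04), and at 6 hr with no normalization (-0.52).

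The OGD arrays were also set against Day 6, the age at which the deprivation began, and Day 8, the nearest later age, neither of which went through reperfusion. These comparisons share their OGD arrays with those against 0 hr. None of the 30 SLRs of the 5 OGD arrays against Day 6 or Day 8 passed the threshold, whereas 2 did after scaling to the 75th percentile, 5 with no normalization and 10 on Gapdh. In these settings the share of all probes past it ran from 3.97% to 15.3%, from 5.88% to 37.1% and from 4.03% to 84.0% over the 10 comparisons. After quantile normalization 9.55% of the transcript probes passed it for the 0 hr array against Day 6, and 5.40%, 6.30%, 4.14% and 10.7% for the 2, 4, 6 and 8 hr arrays. Against Day 8 the shares were 2.90% for 0 hr and 7.94%, 8.04%, 5.47% and 10.7% for the deprived arrays.

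For Nono the values depended on the undeprived array. The 0 hr OGD array itself was higher than Day 6 by 0.88 and higher than Day 8 by 0.57, in all 19 and all 20 comparable spot positions, and both signs held in all 10 settings. Against Day 6 the deprived arrays, from 2 to 8 hr, had SLRs of 0.23, 0.11, -0.01 and 0.55, so none was lower beyond the modelled error of 0.20. With scaling to the 75th percentile, however, it was lower than on Day 6 beyond that error at 2 hr (-0.32) and 4 hr (-0.26). The 8 hr value was then 0.005, and -0.15 with no normalization, both inside the error. At 2 hr the value was also inside it with the 75th percentile of spots above background (0.06) and on the 10 other reference genes (0.08). Over the 10 settings the sign against Day 6 flipped in 2 at 2 hr, in 1 each at 4 hr and 8 hr, and in 5 at 6 hr. Against Day 8 the SLRs from 2 to 8 hr were -0.08, -0.20, -0.32 and 0.23, of which the 6 hr value was lower beyond the error of 0.20, the 4 hr value lay at its edge, and the signs flipped in 1, 2, 1 and 2 settings. With scaling to the 75th percentile the 6 hr value against Day 8 was -0.0009 and the 2 hr value -0.45, the latter beyond the error. The 0 hr OGD culture differs from Day 6 in age by its 24 hr of reperfusion and in the medium, and these cannot be told apart.

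After quantile normalization Rpl13a at 2 hr and 8 hr was lower whichever undeprived array was used. At 2 hr its SLR was -0.54 against 0 hr, -0.89 against Day 6 and -0.49 against Day 8, and all 3 signs held in every setting tried for them (11, 10 and 10). On Gapdh they were -0.23, -0.17 and -0.08, the last 2 within the modelled error of 0.21. At 8 hr it was -0.50, -0.85 and -0.45, and these signs flipped only when arrays were centred on Gapdh, to 0.69, 0.75 and 0.84. On the 10 other reference genes the 8 hr value against 0 hr was -0.18, within its error of 0.21. At 4 hr the SLR of Rpl13a was -0.24, -0.59 and -0.19, of which the last lay within the modelled error of 0.21. The 4 hr signs against Day 6 and Day 8 flipped with no normalization (0.13 and 0.33) and on Gapdh (0.84 and 0.94). At 6 hr the value against Day 6 (-0.15) lay within the error of 0.21, and that against Day 8 was 0.25. The 0 hr array stood at -0.36 against Day 6, which turned to 0.48 with no normalization and 0.06 on Gapdh, and at 0.05 against Day 8, within the error of 0.21.

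Tbp at 2 hr was higher than all 3 undeprived arrays, by 0.29 against 0 hr, 0.45 against Day 6 and 0.59 against Day 8. The signs against Day 6 and Day 8 held in all 10 settings, and all 15 comparable spot positions were higher in each. At 4 hr it was higher by 0.25 than Day 6 and by 0.38 than Day 8, and at 8 hr by 0.30 and 0.43. These sizes depended on the setting. The 4 hr values were 0.12 and 0.20 with normexp, inside the errors of 0.23 and 0.22, and 1.84 and 1.604 on Gapdh. The 8 hr values were 0.14 and 0.22 with normexp, 0.11 and -0.02 with no normalization, all inside the error of 0.24, and 2.07 and 1.84 on Gapdh. At 6 hr it was within the modelled error of each. Against 0 hr, the 4, 6 and 8 hr values were all within the modelled error.

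**Figure D3:**
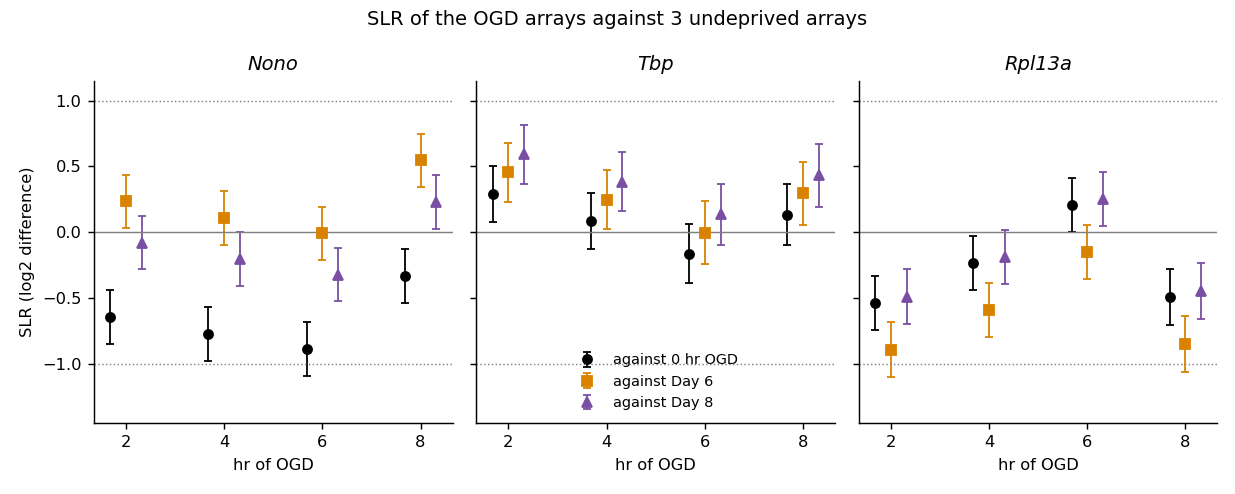
SLR of the 2, 4, 6 and 8 hr OGD arrays against 0 hr OGD, Day 6 and Day 8, with the modelled error of the difference as bars and the threshold of 1 and -1 as dotted lines. After quantile normalization Nono lay below 0 against 0 hr OGD at each time. Against Day 6 it lay above 0 beyond the error at 2 hr (0.23) and 8 hr (0.55) and within it at 4 hr and 6 hr. The 2 hr and 8 hr values against Day 6 fell inside the error in other settings. Rpl13a at 2 hr and 8 hr lay below 0 against all 3.

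Ratios between genes within 1 array do not depend on how arrays are scaled to each other, though they do depend on a correction that differs between bright and dim spots. Only their change between arrays is used here, computed on the deposited signal before normalization. The log2 ratio of Rpl13a over Tbp was lower than at 0 hr OGD after 2 hr (a change of -1.03), 4 hr (-0.48) and 8 hr (-0.81), and higher after 6 hr (0.44), with a modelled error of 0.30 to 0.31. At 2 hr it was also lower than on Day 6, with a change of -1.54, and than on Day 8, with -1.22. At 8 hr these changes were -1.32 and -0.995, and at 4 hr -0.997 and -0.67. At 6 hr they were -0.07 and 0.26, both within the error, so the 6 hr change lay beyond it only against 0 hr.

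The ratio of Nono over Tbp changed since 0 hr by -1.31, -1.03, -0.48 and -0.84 over the 4 lengths of OGD. Against Day 6 the changes of 2, 4 and 8 hr were -0.72, -0.44 and -0.25, but -0.22, -0.14 and 0.25 after quantile normalization, all 3 within the error. Against Day 8 it was -0.98 at 2 hr and -0.71 at 4 hr, and -0.67 and -0.59 after quantile normalization. At 6 hr the change was 0.11 against Day 6 and -0.16 against Day 8, both within the error of 0.30, but after quantile normalization the one against Day 8 was -0.46. At 8 hr the change against Day 8 was -0.52, and -0.20 after quantile normalization. Nono over Rpl13a changed since 0 hr by -0.28, -0.55, -0.93 and -0.03 over the same lengths, so relative to 0 hr the change lay beyond the error of 0.29 at 4 hr and 6 hr. Against Day 6 the changes of 2, 4, 6 and 8 hr were 0.83, 0.56, 0.18 and 1.07, and against Day 8 they were 0.23, -0.04, -0.42 and 0.47. Before normalization the sign thus differed with the undeprived array at each length. The changes since 0 hr at 2 hr and 8 hr, however, lay within the modelled error. After quantile normalization the changes were 1.13, 0.70, 0.14 and 1.40 against Day 6 and 0.41, -0.02, -0.58 and 0.68 against Day 8. At 8 hr the change since 0 hr was then 0.16, within its error, so no sign differed at that length. In maturation the same ratio changed since Day 2 by -0.81, -0.89 and -0.30 on Days 4, 6 and 8, and by -0.30, -1.16 and -0.44 after quantile normalization, against an error of 0.29.

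In maturation the ratios to Tbp also depended on the normalization, and on Day 4 they rest on a Tbp reading that was not above the negative probes. The changes of Nono over Tbp since Day 2 on Days 4, 6 and 8 were -0.69, -0.07 and 0.20 before normalization but 0.16, -0.60 and -0.15 after quantile normalization, against an error of 0.30 to 0.31. Those of Rpl13a over Tbp were 0.12, 0.83 and 0.50 before and 0.46, 0.56 and 0.29 after it. For the OGD arrays against 0 hr, each change of the 3 ratios had the same sign after quantile normalization except Nono over Rpl13a at 8 hr, which went from -0.03 to 0.16.

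**Figure D4:**
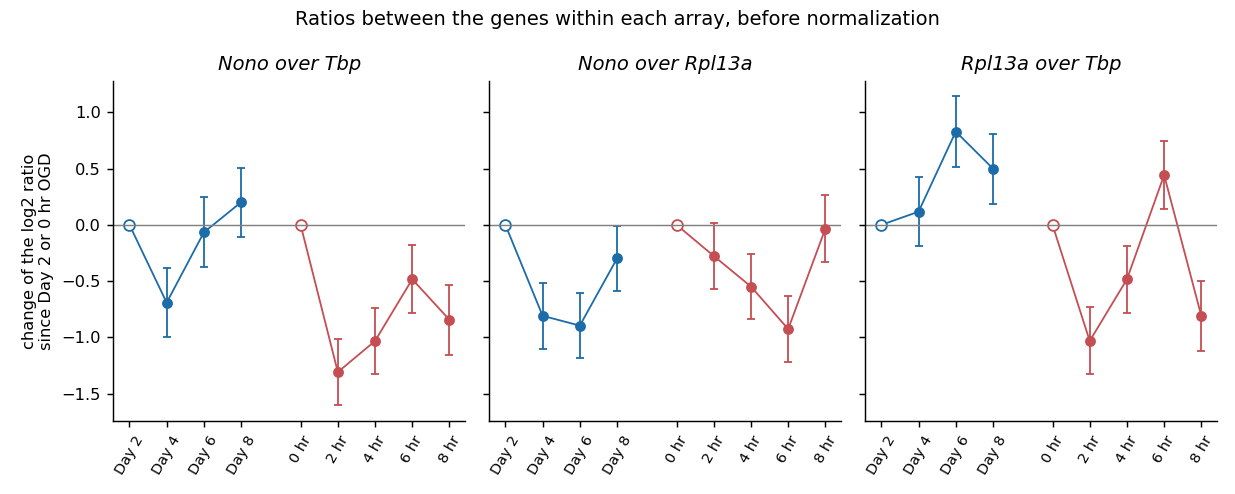
Change of the log2 ratio between 2 genes within an array, since Day 2 for the maturation arrays (blue) and since 0 hr OGD for the OGD arrays (red), before normalization between arrays. Open points are the starting arrays and bars the modelled error, and the Day 4 ratios to Tbp use a Tbp reading at the level of the negative probes. Nono over Tbp lay below its start at each OGD time (-1.31 at 2 hr), and Rpl13a over Tbp was below it at 2, 4 and 8 hr and above it at 6 hr.

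Over all 9 arrays Nono ranged over 1.05 on the log2 scale (2.08-fold), Tbp over 1.39 (2.62-fold) and Rpl13a over 1.03 (2.05-fold). Of the 17431 transcript probes well above background on all 9, 24.6%, 50.2% and 23.1% had a smaller range. Among the 13 reference genes well above background throughout, the 3 members took places 6, 13 and 5 from the narrowest, between Actb at 0.66 and Tbp itself. For Tbp the quantile-normalized value rested on Day 4, a reading at the level of the negative probes, so its fold, place and share over the 9 arrays are not exact. Without that array its range was 0.59, the narrowest of the 13, and 7.09% of probes had a smaller one, whereas Nono had 0.89 and Rpl13a 0.89, at places 6 and 7. Without Day 4 Tbp was also the narrowest with the 75th percentile of all spots (0.53) and with normexp (0.35). It was not with the 75th percentile of spots above background (0.90, place 8), the 10 other reference genes (0.89, place 8), no normalization (1.12, place 4) or Gapdh (2.07, place 11). In the OGD series Tbp ranged over 0.46 after quantile normalization, with only Hsp90ab1 narrower at 0.20, but over 0.90 with the 75th percentile of spots above background (place 8), 0.89 on the 10 other reference genes (place 9), 1.09 with no normalization and 1.498 on Gapdh. On the quantile-normalized scale Rpl13a ranged over 0.74 and Nono over 0.89.

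**Figure D5:**
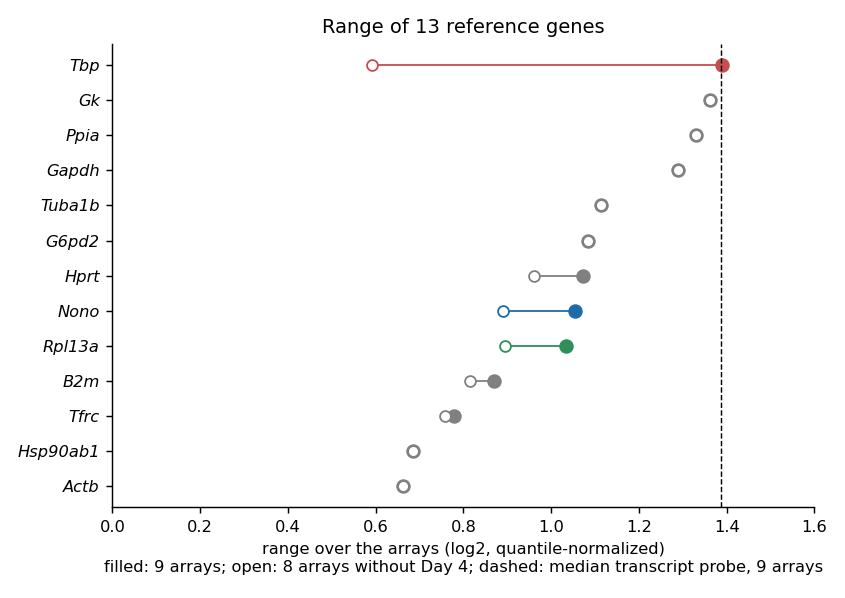
Range of the quantile-normalized log2 level of 13 reference genes over the 9 arrays (filled points) and over 8 arrays without Day 4 (open points, which cover the filled ones where the range is the same). The dashed line is the median range of transcript probes over 9 arrays, 1.39. Tbp went from 1.39 to 0.59 when Day 4 was left out, the widest move among the 13 on this scale.

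The likeness of 2 profiles was measured as the root mean square difference of their levels over the 9 arrays, each centred on its own mean, across the 12 other reference genes. The profile nearest to Nono was that of Tfrc, the transferrin receptor, at 0.24, followed by Actb at 0.35. Nearest to Tbp were B2m, the light chain of MHC class I, at 0.28 and Hsp90ab1, a heat shock protein, at 0.30. Nearest to Rpl13a were Hprt, a purine salvage enzyme, at 0.26 and Ppia, a prolyl isomerase, at 0.34. The members were not each other's nearest genes, since Nono and Tbp differed by 0.36, Tbp and Rpl13a by 0.45, and Nono and Rpl13a by 0.46. The distances from Tbp include its Day 4 reading. Without Day 4, over 8 arrays, Hsp90ab1 (0.20) came before B2m (0.21) for Tbp and Actb (0.20) before Tfrc (0.25) for Nono, while Hprt (0.28) and Ppia (0.31) kept their places for Rpl13a. All these profiles share the arrays and their normalization, and these distances were given no test.

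Few other genes of the same machinery could be named from the probe names used here, because most of these are design numbers. Of 8 paraspeckle partners of Nono 0 matched a probe name, of 51 proteins of the large ribosomal subunit other than Rpl13a 0 matched, and of 22 partners of Tbp 1 matched. This was Taf1a, a subunit of the complex that brings Tbp to the promoters of ribosomal RNA genes, with 1 spot. Over the maturation days its signal was 68.8, 73.5, 72.5 and 81.4, and the Day 4 reading again lay below the 95th percentile of the negative spots (95.8). In the OGD series its signal was 194.0 for 0 hr and 89.9, 132.0, 87.2 and 45.1 for the deprived arrays in order of time. Its SLR against 0 hr was -0.33, -0.53, -0.34 and -1.01, with a modelled error of 0.21 to 0.25, and only the 8 hr value was past the threshold, on the array where 27.4% of transcript probes were. The values depended on the undeprived array, since against Day 6 the SLRs were 0.20, 0.01, 0.20 and -0.47 and against Day 8 they were 0.32, 0.13, 0.31 and -0.36. Against Day 2 the Day 4 SLR was -1.28, which rests on the reading below that percentile. Of the 21 neuronal and glial marker genes listed, 0 matched a probe name, so the labelled cell type was not checked and these markers were not analysed here.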

How the data were processed

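The authors hybridized Cy3-labelled cRNA from rRNA-depleted RNA to 9 single-colour lncRNA and mRNA arrays and deposited the intensity of every spot as Feature Extraction 11.0.1.1 gives it (background-corrected signal to 3 digits, its modelled error, and flags). The deposited table of the authors' processed values was not used, since it lists no probe of these genes. Outlier spots were left out, log2 intensity from the deposited signal was quantile normalized, the method the authors name, here at spot level over the 9 arrays, and the spots of a probe were averaged. SLR is a log2 difference, and its modelled error combines both arrays. Background shares cover transcript probes with most spots well above background on both arrays. Accessions were matched without version to the RefSeq table of GRCm38.p6, 15 of 15. Named genes were the 3 members, the 2 reference genes nearest to each in profile, and list genes that matched a probe. The members and lists were chosen with earlier results of these data known. Alternatives were other scalings, normexp with an offset of 50, medians over spots, outliers kept and leaving out each array. The steps were tested on simulated data. Python 3.11.15 (numpy 2.4.6, pandas 2.3.3, scipy 1.17.1, matplotlib 3.10.9), R 4.3.3 and limma 3.58.1 were used.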

Additional observations from a re-analysis of the deposited data

How the results depend on the processing

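With 1 array per condition, the number of arrays limits the precision, and Tbp on Day 4 could not be read above the negative probes. Of the 54 SLRs of the 3 genes, 21 kept their sign in every setting tried, and 19 of these lay beyond the modelled error after quantile normalization. Not all of the 19 did so in every setting. Nono on Day 6 against Day 2, for example, was -0.09 with the 75th percentile of all spots. The 54 SLRs share the same 9 arrays, so they are not independent, and no like count over all probes is given here. The median SLR of all probes shifted from that after quantile normalization by up to 1.68 when arrays were centred on Gapdh, 1.06 with no normalization, 0.65 when centred on the 10 other reference genes, 0.45 with the 75th percentile of spots above background and 0.18 with that of all spots.

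Scaling to the 75th percentile of all spots put the Day 8 SLR at 0.048 for Nono and 0.35 for Rpl13a and the 8 hr OGD SLR at -0.78 and -0.75, widened the ranges to 2.25 and 1.55, and put 2 OGD SLRs against 0 hr and 2 against Day 6 or Day 8 past the threshold (all probes 10.3% to 31.1% and 3.97% to 15.3%). In maturation the SLR past it was then that of Nono on Day 4 (-1.55) and not that of Tbp (-0.86), with all probes at 12.0% to 27.7%. The 75th percentile of spots above background gave Tbp -0.53 on Day 8 and 0.50 at 8 hr, with ranges of 0.90 for Tbp and 0.76 for Rpl13a. It put 0 maturation SLRs past the threshold (all probes 11.8% to 21.1%). Quantile normalization within each series also put 0 past it, with Tbp on Day 4 at -0.99 instead of -1.03. The share of all probes is not given here for that setting, so its 0 cannot be set against a background. With no normalization between arrays the Day 8 SLR was 0.025 for Nono and 0.32 for Rpl13a, the 8 hr SLRs were -1.74, -0.89 and -1.70 for Nono, Tbp and Rpl13a, the ranges 1.74, 1.12 and 1.70, and 0 maturation SLRs, 5 OGD SLRs against 0 hr and 5 against Day 6 or Day 8 passed (all probes 10.4% to 33.2%, 17.9% to 47.5% and 5.88% to 37.1%). Centring on the 10 other reference genes gave Tbp -0.59 on Day 8 and 0.63 at 8 hr, Rpl13a -0.18 at 8 hr, ranges of 0.85, 0.89 and 0.75, and 0 maturation SLRs past the threshold (all probes 13.1% to 23.9%). Centring on Gapdh gave -0.74, -0.94 and -0.44 on Day 8, 0.65, 1.498 and 0.69 at 8 hr, ranges of 1.82 for Nono and 2.07 for Tbp, and 2 SLRs past the threshold in each series and 10 against Day 6 or Day 8 (all probes 27.5% to 43.7% in maturation, 20.1% to 64.1% against 0 hr and 4.03% to 84.0% against Day 6 or Day 8). After normexp the ranges of Tbp and Rpl13a were 0.66 and 0.74 and 0 maturation SLRs passed (all probes 3.08% to 7.96%). The SLR of Tbp on Day 4 turned to 0.27 without normalization and 0.24 on Gapdh. The cause of these shifts was not tested.

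Leaving out each array in turn gave ranges of 0.87 to 1.05 for Nono, 0.59 to 1.39 for Tbp, lowest without Day 4, and 0.88 to 1.03 for Rpl13a. Keeping outlier spots, taking medians over spots and normalizing probe means each moved 0 of 54 SLRs beyond the modelled error. The share of all probes past the threshold on Day 4 ran from 7.96% with normexp to 34.5% with outliers kept. With normexp the share was also lower for the OGD arrays, at 2.69% to 10.2% against 0 hr and 1.00% to 4.82% against Day 6 or Day 8. The authors' processed values were not run, as they hold none of these probes. Combining each scaling with leaving out Day 4, the ranges over the OGD arrays under each scaling, and the likeness without Day 4, were chosen after seeing the data. No paired analysis was possible because there is a lone array for every condition, with no replicate numbers to pair.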
